A study of Homo sapiens with 6 samples.

Results

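The mitochondrial ribosomal protein genes are the nuclear genes whose symbols begin with MRPL or MRPS followed by a digit. They were chosen by that symbol pattern alone, which found 78 of the 19923 genes in the deposited table. BT549 cells, a human line from a breast cancer, were profiled by RNA sequencing in 3 libraries labelled control and 3 labelled ENL. What ENL stands for, its dose, its duration and any vehicle are not in the labels, so ENL serves here only as the name of a group. Both groups are the same line, and no other treatment or genetic change is labelled. Separate cultures are not stated for the 3 libraries of either group, so the p-values cover only the spread among these libraries, which may be technical. The comparison asks which of these genes differed in RNA level between ENL and control cells.

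Mitochondria keep their own ribosome, which makes the few proteins encoded by mitochondrial DNA, all of them parts of the respiratory chain or of ATP synthase. Its ribosomal RNAs come from the mitochondrial genome, while all of its proteins are encoded in the nucleus, made in the cytosol and imported. Some descend from bacterial ribosomal proteins, and others were added during the evolution of mitochondria and are called mitochondria-specific here. Each protein belongs to the large subunit, which joins amino acids, or to the small subunit, which reads the messenger RNA.

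By known position, 51 of the 78 genes encode large-subunit proteins and 26 encode small-subunit proteins. The symbols do not fully follow the subunits, since MRPS30 and MRPS18A encode proteins of the large subunit. MRPS36 encodes a protein now known as a subunit of the 2-oxoglutarate dehydrogenase complex and was left out of both. Of the large-subunit proteins 30 belong to bacterial families and 21 are mitochondria-specific, and of the small-subunit proteins 16 and 10.

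Library totals were 74457932 to 85310759 units of estimated count, taken here as about 4 units per sequenced fragment. Levels are given as CPM, the count of a gene relative to the whole library, on a scale normalised by TMM, which assumes that most genes do not differ. The 7 markers expected in BT549 summed to 4062 to 4777 CPM in control and 6856 to 7665 CPM in ENL. Most of that sum was VIM, the intermediate filament of mesenchymal cells, at 2481 to 3267 CPM in control and 5372 to 6289 CPM in ENL. The mean level was higher in ENL for 5 of the 7, though AXL and ZEB1 overlapped between the groups, and lower for 2. These 2 were CAV1 (mean 587 CPM in control, 410 CPM in ENL) and MSN (453 and 349 CPM). The 7 epithelial and hormone receptor markers summed to 44.7 to 51.3 CPM in control and 64.6 to 80.3 CPM in ENL. PGR was at 0 in every library, and CDH1 and EPCAM were below 1 CPM. Most of the sum was KRT8 (mean 15.8 CPM in control, 38.0 CPM in ENL) and GATA3 (30.1 and 31.6 CPM). The 6 immune and endothelial markers summed to 5.68 to 10.7 CPM in control and 5.61 to 7.02 CPM in ENL. Whether these shifts in marker levels bear on the genes described here was not tested, and in RNA from whole cultures fewer expressing cells and less RNA per cell cannot be told apart.

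All 78 genes passed the filter on low counts. Tested by quasi-likelihood in edgeR, with p-values adjusted over 14086 genes by the Benjamini-Hochberg method, 13 of the 78 were higher in ENL (16.7%, beside 20% of all tested genes) and 7 were lower (8.97%, beside 18.4%). Together 25.6% of the genes were called, beside 38.4% of all tested genes, so with all libraries the share was below the background. Without ENL library 3, 32 of the 78 were called, beside 41.8% of all tested genes, which is close to the background. Without any other library 8 to 12 were called, beside 26.6% to 32.1%. Among the 9559 tested genes whose control mean lay in the range of these genes, 22.1% were higher and 19.8% lower. The balance of calls rested on the scaling, with 13 higher and 7 lower by TMM against 5 higher and 18 lower when libraries were scaled by their totals alone. The same change of scaling moved the share of higher calls among all called genes from 52.2% to 31.1%, and over all tested genes it moved the median log2 fold change from -0.02 to -0.23.

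Most of the differences were small. The median log2 fold change of the 78 genes was 0.11, with the middle of the distribution between -0.12 and 0.33, beside -0.02 for all tested genes, whose middle lay between -0.46 and 0.41. With each library left out, the median of the 78 genes ran from 0.039 to 0.221, the highest without ENL library 3. The median size of the change without its sign was 0.26 for these genes and 0.43 for all tested genes. In 49 of the 78 the ENL mean lay within 0.8 to 1.25 times the control level. At 1.5-fold or more, 4 were called higher and 2 lower, beside 13.2% and 11.9% of all tested genes. At 2-fold or more there was 1 in each direction, MRPS30 above and MRPL49 below, beside 5.91% and 6.02%. Every ENL library lay above every control library for 20 of the genes (26.4% of all tested genes did so) and below for 12 (27.6%), and the groups overlapped for the other 46, while over all tested genes they did not overlap for 54%.

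**Figure D1:**
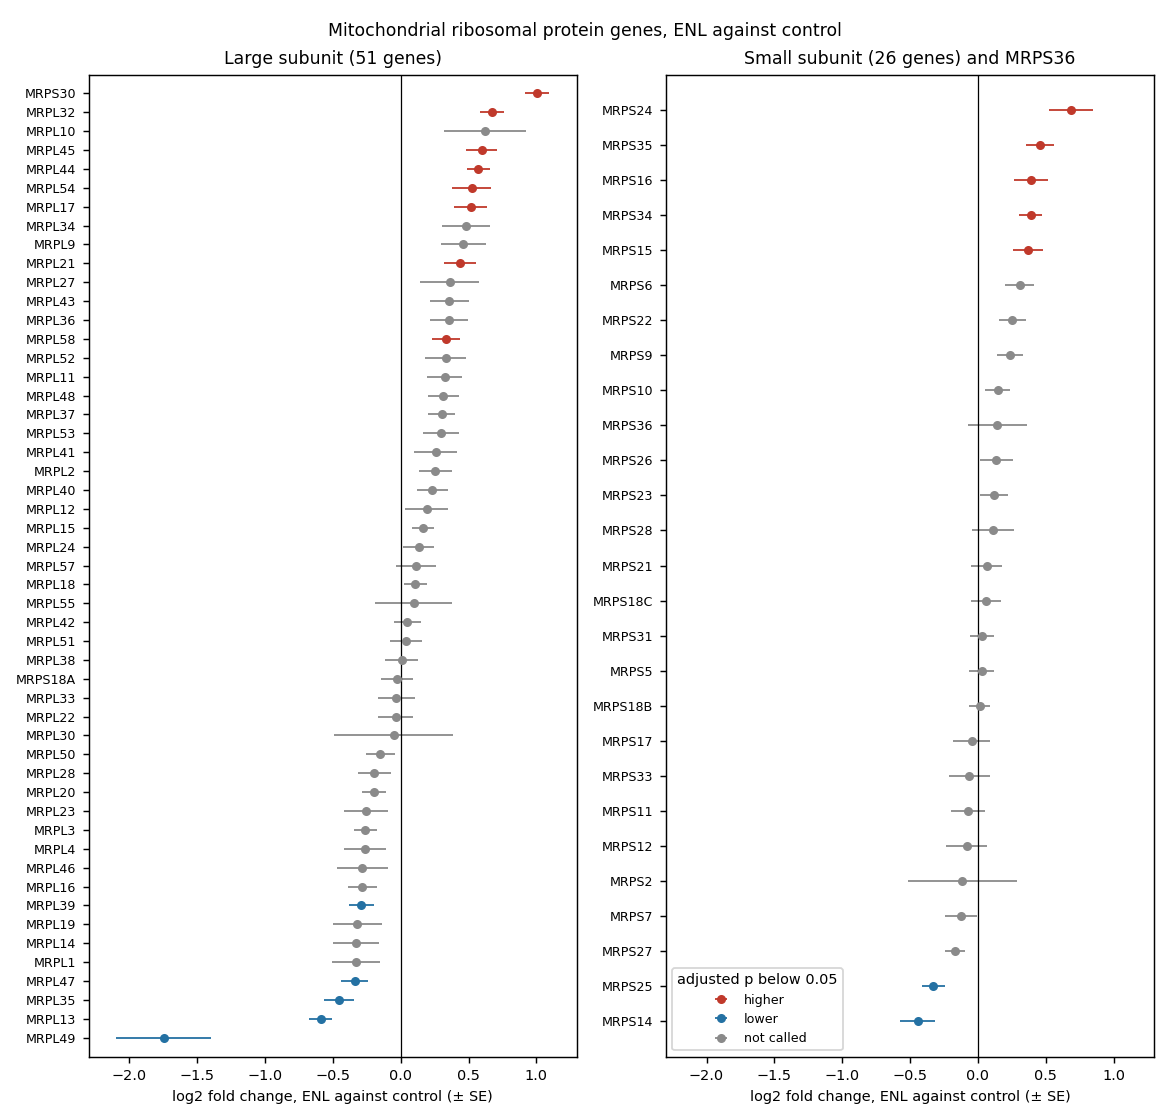
Log2 fold change of each of the 78 genes, ENL against control, with its standard error (n = 3 libraries per group), for the large subunit on the left and for the small subunit and MRPS36 on the right. Red points are higher and blue points lower at an adjusted p below 0.05 on the TMM scale (13 and 7 genes, which became 5 and 18 with library totals alone), and most of the grey points lie near 0.

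In the large subunit 8 of 51 genes were higher (15.7%, beside 20% of all tested genes) and 5 lower (9.8%, beside 18.4%), with a median log2 fold change of 0.11. In the small subunit 5 of 26 were higher (19.2%) and 2 lower (7.69%), with a median of 0.06. The 21 mitochondria-specific genes of the large subunit had 5 higher (23.8%), 2 lower (9.52%) and a median of 0.26, while its 30 genes of bacterial families had 3 higher, 3 lower (10% each) and a median of 0.03. In the small subunit the 16 genes of bacterial families had 3 higher (18.8%), 1 lower (6.25%) and a median of 0.06, and the 10 mitochondria-specific genes had 2 higher (20%), 1 lower (10%) and a median of 0.08. Differences between these classes were not tested.

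Upstream sequence is shown for 3 members whose 250 bases before the start overlap no annotated exon, so that a gene called higher, one called lower and one not called can be read side by side. The sequences come from RefSeq (GRCh38.p14), which had a promoter window for 69 of the 78 genes, and are written 5′ to 3′ on the strand of the gene. Capitals mark matches to CCGGAAG or its reverse complement CTTCCGG, the core of sites bound by the ETS family, which includes GABPA, a known regulator of nuclear genes for mitochondrial proteins. MRPL58 was called higher and its sequence lies at chr17:75012420-75012669 on the plus strand, MRPS14 was called lower and its sequence lies at chr1:175023426-175023675 on the minus strand, and MRPS18A was not called and its sequence lies at chr6:43687792-43688041 on the minus strand.
MRPL58: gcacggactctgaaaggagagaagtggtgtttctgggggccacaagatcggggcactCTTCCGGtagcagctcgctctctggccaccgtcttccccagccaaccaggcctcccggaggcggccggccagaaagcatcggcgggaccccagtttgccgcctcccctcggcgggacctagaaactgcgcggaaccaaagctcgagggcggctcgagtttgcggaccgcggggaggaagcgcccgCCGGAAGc
MRPS14: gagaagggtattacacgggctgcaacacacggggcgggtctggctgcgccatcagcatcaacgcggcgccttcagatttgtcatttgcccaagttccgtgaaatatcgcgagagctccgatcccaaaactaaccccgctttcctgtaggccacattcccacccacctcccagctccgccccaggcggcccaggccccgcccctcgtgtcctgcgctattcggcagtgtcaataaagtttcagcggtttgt
MRPS18A: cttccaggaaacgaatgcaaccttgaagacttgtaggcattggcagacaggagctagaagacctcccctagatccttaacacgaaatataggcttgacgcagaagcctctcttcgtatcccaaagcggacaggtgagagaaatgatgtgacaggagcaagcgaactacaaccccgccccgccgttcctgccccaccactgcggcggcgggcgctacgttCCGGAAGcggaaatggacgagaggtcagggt
MRPL58 holds 2 of these cores, MRPS18A holds 1 and MRPS14 holds none in these letters. Of the other genes not called with no annotated exon in these bases, MRPS31 also holds a core, and MRPL11, MRPL19 and MRPL50 hold none. Over all windows searched below the order differed. The core was in 24 of 52 windows of genes not called, 4 of 12 of higher genes and 1 of 5 of lower genes. The 3 sequences are examples and do not stand for their groups.

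Windows of 300 bases, from 250 before to 50 after each start, were searched on both strands for 4 motifs. The ETS core CCGGAAG was in 29 of the 69 windows (42.0%), beside 18.4% of the 11028 windows of tested genes. The YY1 motif, 10 letters that stand in capitals in the sites shown with it, was in 13 (18.8%), beside 2.68%. The NRF1 motif, GCGCA and GCGC with any base between, was in 8 (11.6%, beside 11.1%), and the E-box CACGTG in 6 (8.7%, beside 9.91%). The ETS core and the YY1 motif were thus found in a larger share of these windows than of all tested genes, and the other 2 motifs in a similar share. A match is a run of letters and not a measured binding site.

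**Figure D2:**
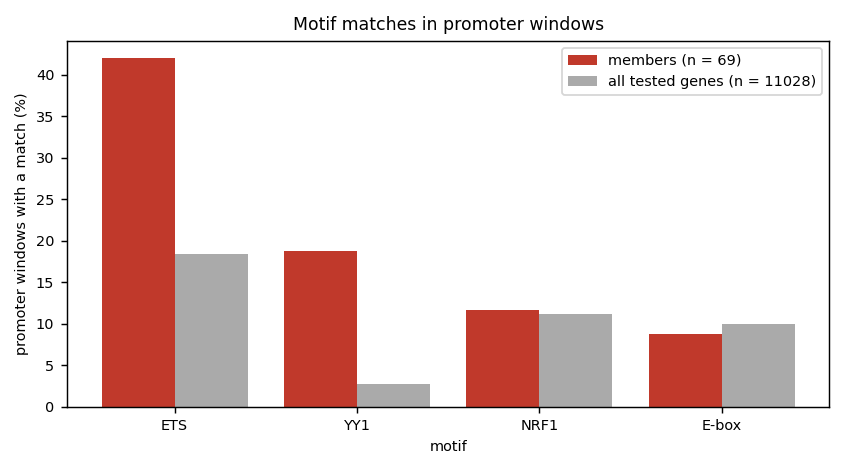
Share of promoter windows, in percent, that hold each of 4 motifs, for the 69 genes described here with a window (red) and for the 11028 tested genes with a window (grey). The red bars stand above the grey ones for ETS (42.0% and 18.4%) and YY1 (18.8% and 2.68%).

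Matches were found among genes called and not called. The ETS core was in 4 of 12 windows of higher genes, 1 of 5 of lower genes and 24 of 52 of genes not called. The YY1 motif was in 3 of 12, 0 of 5 and 10 of 52. Its sites are shown because several lie just after the start of the gene, and the letters of the motif include an ATG. The 30-base sites below have the motif in capitals, with 3 from genes called higher and 3 from genes not called.
MRPS30: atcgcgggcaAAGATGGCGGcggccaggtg
MRPS24: cgcttggcccAAGATGGCGGcctccgtgtg
MRPL32: tacccgcgctCCGCCATCTTtacccgaaga
MRPS18A: taggtttttgAAGATGGCGGccctcaaggc
MRPS18B: ggcgtacgtcAAGATGGCGGcgtctgtatt
MRPL46: gggagaacgaAAGATGGCGGcgcccgtaag
The MRPS30 site is at chr5:44808950-44808979 on the plus strand and the MRPS24 site at chr7:43869479-43869508 on the minus strand. The MRPL32 site, at chr7:42932142-42932171 on the plus strand, lies before the start, with the motif on the reverse strand. It also lies inside PSMA2, a gene on the opposite strand at chr7:42916857-42932223, so it is not a site of MRPL32 alone. The other sites are at chr6:43687763-43687792 on the minus strand (MRPS18A), chr6:30617853-30617882 on the plus strand (MRPS18B) and chr15:88467361-88467390 on the minus strand (MRPL46). The 3 higher genes with this motif have the highest log2 fold changes, but it was also in 10 of 52 windows of genes not called. One of these is MRPS18B, whose levels overlapped between the groups. Whether the motif goes with a change in level was not tested. The sites after the start hold an ATG, and whether they act as promoter sites was not tested either.

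MRPS30 had the highest log2 fold change of the 78. It encodes a mitochondria-specific protein of the large subunit and lies at chr5:44808925-44820428 on the plus strand (GENCODE 29, GRCh38). Its level was 62.4, 58.8 and 56.7 CPM in control libraries 1, 2 and 3 and 127, 122 and 108 CPM in ENL libraries 1, 2 and 3. Each ENL library was above each control library, and the spread inside each group was small beside the gap. The log2 fold change was 1.01 ± 0.09 (SE, n = 3 per group, adjusted p = 0.00033 by edgeR).

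MRPL32, MRPL44 and MRPL45 rose together with it in the large subunit. MRPL32, of a bacterial family, is made as a precursor that the mitochondrial m-AAA protease must cut before the protein can join the ribosome. It lies at chr7:42932200-42948958 on the plus strand. Its level was 75.03, 66.04 and 68.83 CPM in control and 114, 117 and 104 CPM in ENL, with no overlap. The log2 fold change was 0.67 ± 0.09 (adjusted p = 0.00148). Both subunits of the m-AAA protease fell, AFG3L2 by 0.55 ± 0.07 (adjusted p = 0.00132) and SPG7 by 0.51 ± 0.17 (adjusted p = 0.0468) on the log2 scale.

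MRPL44, a mitochondria-specific protein with a fold like that of RNase III enzymes, lies at chr2:223957404-223967714 on the plus strand. Its level was 40.9, 38.2 and 39.5 CPM in control and 60.6, 61.0 and 54.9 CPM in ENL. The groups lay far apart for their spread, at 0.57 ± 0.09 on the log2 scale (adjusted p = 0.0025). MRPL45, a mitochondria-specific protein near the exit of the peptide tunnel where the ribosome meets the inner membrane, lies at chr17:38297023-38323218 on the plus strand. Its level was 40.4, 34.2 and 41.3 CPM in control and 61.6, 60.6 and 52.9 CPM in ENL, again without overlap, at 0.60 ± 0.11 (adjusted p = 0.00613). MRPS30, MRPL32, MRPL44 and MRPL45, with MRPL13 below, were the 5 genes called in the same direction in all 21 alternative settings. With library totals alone the log2 fold changes of MRPL44 and MRPL45 were smaller, at 0.36 and 0.39.

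Among the small-subunit genes MRPS24 had the highest log2 fold change. It encodes the mitochondrial form of the bacterial protein S3 and lies at chr7:43866558-43869893 on the minus strand. Its level was 59.6, 65.3 and 50.3 CPM in control and 90.6, 114 and 77.4 CPM in ENL. The ENL libraries spread widely but all lay above control, at 0.68 ± 0.16 (adjusted p = 0.0159). The call was lost without control library 1 (adjusted p = 0.0503) and without control library 3 (adjusted p = 0.054), and with offsets for length and GC content the log2 fold change of MRPS24 was 0.40.

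MRPL54, a mitochondria-specific protein of the large subunit at chr19:3762664-3768575 on the plus strand, was at 24.7, 23.0 and 24.8 CPM in control and 37.8, 38.8 and 27.5 CPM in ENL. ENL library 3 lay close to control and the other ENL libraries well above it. The log2 fold change was 0.52 ± 0.15 (adjusted p = 0.0285). The adjusted p was 0.0725 to 0.0892 when any 1 of the other 5 libraries was left out, and 0.00184 without ENL library 3. With length and GC offsets the log2 fold change of MRPL54 was 0.18 (adjusted p = 0.175), and the call was also lost by upper-quartile scaling (0.0559), library totals (0.0996) and the replicate block (0.0556).

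MRPL58, a peptidyl-tRNA hydrolase that frees stalled ribosomes and is also built into the large subunit, was at 23.5, 27.5 and 24.4 CPM in control and 32.01, 33.44 and 29.47 CPM in ENL. Its groups were close but did not overlap, at 0.33 ± 0.10 (adjusted p = 0.0417), and the call held in 1 of the 6 omissions of a library, that of ENL library 3 (adjusted p = 0.0269, beside 0.0513 to 0.131 in the others). The call on MRPL58 was also lost with length and GC offsets (0.17, adjusted p = 0.123), upper-quartile scaling (0.25, 0.108), library totals (0.12, 0.333) and both other filters on low counts (0.0505 and 0.0569).

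The other 6 higher genes had log2 fold changes of 0.37 to 0.51. They were MRPL17 (0.51) and MRPL21 (0.44) of the large subunit and MRPS35 (0.46), MRPS16 (0.39), MRPS34 (0.39) and MRPS15 (0.37) of the small subunit. MRPS34 kept its call when each library was left out, but with length and GC offsets its log2 fold change was 0.10 (adjusted p = 0.357) and with library totals 0.18 (0.0946). MRPL21 (adjusted p = 0.0651 to 0.0897), MRPS15 (0.057 to 0.113) and MRPS16 (0.0566 to 0.132) lost theirs without any 1 of the other 5 libraries and kept it without ENL library 3. MRPL17 lost it without control library 1 (adjusted p = 0.0619), control library 2 (0.0515) or ENL library 1 (0.0538), and MRPS35 without control library 2 (0.0544) or control library 3 (0.052). With library totals the calls on MRPL17 (0.30, adjusted p = 0.0672), MRPL21 (0.22, 0.12), MRPS35 (0.25, 0.103), MRPS16 (0.18, 0.227) and MRPS15 (0.16, 0.201) were lost. MRPL21, MRPS16 and MRPS15 also lost theirs by upper-quartile scaling (0.0597, 0.0947 and 0.0884), MRPS16 at 10 CPM or more (0.0566), and MRPL21 with offsets and the replicate block (0.0899). With offsets alone the log2 fold changes of MRPL21 and MRPS15 were both 0.20.

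**Figure D3:**
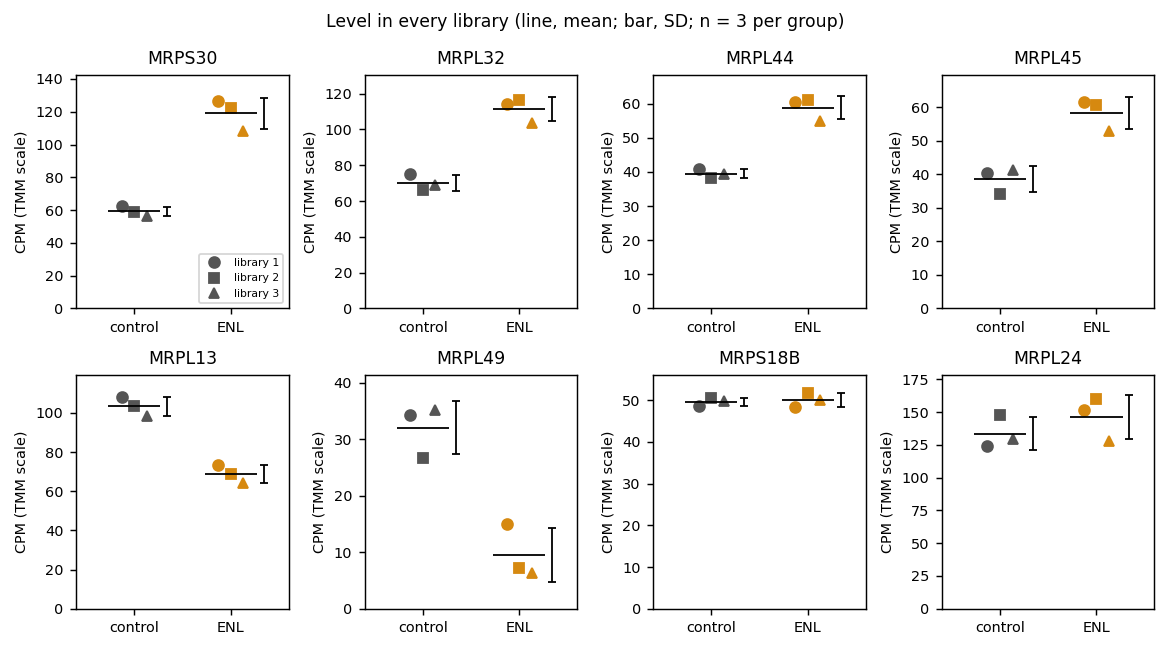
Level in CPM on the TMM scale in each library (points, with a shape per library number), with the mean (line) and SD (bar) of the 3 libraries of each group, for 8 genes. MRPS30, MRPL32, MRPL44 and MRPL45 lie above control in every ENL library, MRPL13 and MRPL49 lie below, and MRPS18B and MRPL24 overlap.

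Of the lower genes MRPL13 was the most stable. It encodes the mitochondrial form of the bacterial large-subunit protein L13. Its level was 108, 104 and 98.5 CPM in control and 73.4, 68.9 and 64.0 CPM in ENL. Every ENL library lay well below every control library, and the gene fell by 0.59 ± 0.08 on the log2 scale (adjusted p = 0.00219).

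MRPL49, a mitochondria-specific protein of the large subunit, had the lowest log2 fold change, and it is the least certain. It lies at chr11:65122183-65127371 on the plus strand. Its level was 34.3, 26.7 and 35.2 CPM in control and 15.02, 7.266 and 6.381 CPM in ENL. The groups did not overlap, but ENL library 1 was above ENL libraries 2 and 3. The log2 fold change was -1.75 ± 0.35 (adjusted p = 0.0102). Its exons share 282 bases with FAU, the gene of a cytosolic ribosomal protein, and 356 bases with SYVN1, both on the opposite strand. FAU rose from a mean of 273 to 472 CPM, by 0.79 on the log2 scale (adjusted p = 0.00503). The sources used here do not give whether the counting used strand, so reads from these genes cannot be told apart. Summed with both neighbours, the locus rose by 0.61 (adjusted p = 0.00625).

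The other lower genes moved less. MRPL35, of a bacterial family of the large subunit, was at 33.9, 31.9 and 29.9 CPM in control and 26.1, 21.5 and 22.2 CPM in ENL. The groups did not overlap, and the log2 fold change was -0.45 ± 0.11 (adjusted p = 0.0178). Its call was lost without control library 1 (adjusted p = 0.0671), control library 2 (0.0572) or ENL library 2 (0.0503). MRPS14, the mitochondrial form of the bacterial small-subunit protein S14, was at 27.5, 36.1 and 32.1 CPM in control and 22.5, 25.7 and 22.2 CPM in ENL. Control library 1 was the nearest to ENL, and the log2 fold change was -0.45 ± 0.13 (adjusted p = 0.0322). MRPS14 shares 351 exon bases with CACYBP on the opposite strand, and the sum of both gave 0.15 (adjusted p = 0.458). The call on MRPS14 alone was lost without control library 2 (0.112), control library 3 (0.0918), ENL library 1 (0.0935) or ENL library 3 (0.0784).

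MRPL47 and MRPS25 lay lower in ENL by smaller margins. MRPL47, of a bacterial family, was at 74.0, 74.8 and 66.6 CPM in control and 60.4, 59.2 and 50.7 CPM in ENL. MRPS25, a mitochondria-specific protein of the small subunit, was at 79.5, 82.8 and 89.3 CPM in control and 68.2, 69.4 and 62.6 CPM in ENL. Neither pair of groups overlapped. The log2 fold changes were -0.34 ± 0.10 (adjusted p = 0.0357) and -0.33 ± 0.09 (adjusted p = 0.0213). MRPL47 lost its call in each of the 6 omissions of a library (adjusted p = 0.053 to 0.116), and MRPS25 without control library 2 (0.0634), control library 3 (0.0898) or ENL library 1 (0.0523). MRPS25 shares 1197 exon bases with NR2C2 on the opposite strand, and its call was lost when both were summed (-0.29, adjusted p = 0.0823) and with length and GC offsets (0.0508, and 0.0998 with the replicate block). MRPL39, a mitochondria-specific protein of the large subunit, had a log2 fold change of -0.29 ± 0.10 at the edge of the threshold (adjusted p = 0.0499) and lost its call in each omission (0.0708 to 0.157), with no filter on low counts (0.0668), with the replicate block (0.0571) and without cytosolic ribosomal and mitochondrially encoded genes (0.0537). Against a 1.2-fold change, by edgeR's glmTreat, 5 higher genes (MRPS30, MRPS24, MRPL32, MRPL44 and MRPL45) and 2 lower genes (MRPL13 and MRPL49) passed. Of all tested genes, 26.1% passed.

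The 3 genes most abundant for their length did not pass the test. Per kilobase of the longest coding transcript, the control means were 135 CPM for MRPL24, 125 CPM for MRPS21 and 117 CPM for MRPL18, beside a median of 31.6 CPM over the 78 genes. MRPL24, of a bacterial family of the large subunit, was at 124, 148 and 129 CPM in control and 152, 160 and 128 CPM in ENL. MRPS21, of a bacterial family of the small subunit, was at 175, 192 and 183 CPM in control and 192, 218 and 164 CPM in ENL. MRPL18, a large-subunit protein of the family that binds 5S RNA in bacteria, was at 120, 116 and 109 CPM in control and 129, 129 and 113 CPM in ENL. Groups overlapped in each of the 3, and the adjusted p was 0.357 to 0.686. The lowest level per kilobase was that of MRPL42, at 2.49 CPM, whose longest annotated transcript has 15582 bases and need not be the one expressed.

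Genes for the stalk of the large subunit, which recruits translation factors, did not pass the test. MRPL12, the stalk protein, was at 103, 114 and 95.4 CPM in control and 126, 139 and 92.0 CPM in ENL (0.19, adjusted p = 0.377), so that ENL libraries 1 and 2 were above every control library and ENL library 3 below. MRPL10, which anchors MRPL12, was at 23.7, 23.6 and 28.0 CPM in control and 58.1, 31.2 and 26.6 CPM in ENL (0.62, adjusted p = 0.15). ENL library 1 stood far above the others, and without it the log2 fold change of MRPL10 was 0.21. MRPS12, of the decoding centre of the small subunit, was at 85.0, 85.3 and 76.6 CPM in control and 83.1, 89.7 and 60.3 CPM in ENL (-0.08, adjusted p = 0.694). With length and GC offsets MRPS12 was called lower (-0.30, adjusted p = 0.0334, and 0.0269 with the replicate block).

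The 3 paralogs of the bacterial protein S18 showed almost equal levels in both groups on the TMM scale. MRPS18B was at 48.7, 50.5 and 49.8 CPM in control and 48.4, 51.7 and 50.2 CPM in ENL. The log2 fold changes were -0.03 for MRPS18A, 0.01 for MRPS18B and 0.06 for MRPS18C, with standard errors of 0.12, 0.08 and 0.11 and adjusted p of 0.688 to 0.909. The sign of MRPS18B and MRPS18C was negative by upper-quartile scaling and by library totals. With length and GC offsets MRPS18A was called lower (-0.239, adjusted p = 0.0263).

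MRPS27, an RNA-binding protein of the small subunit with pentatricopeptide repeats, was at 130, 131 and 125 CPM in control and 117, 118 and 108 CPM in ENL. No values overlapped, but the difference of -0.17 did not pass (adjusted p = 0.104). MRPS27 was called lower by upper-quartile scaling (-0.255, adjusted p = 0.0338) and by library totals (-0.378, 0.00438). The log2 fold change of the mitochondria-specific large-subunit genes MRPL37, MRPL41 and MRPL48 was 0.30, 0.26 and 0.31 (adjusted p = 0.0564, 0.247 and 0.067), and all 3 passed without ENL library 3 (0.00241, 0.0198 and 0.0115). MRPS36, the gene outside both subunits, was at 40.7, 23.0 and 38.2 CPM in control and 38.6, 40.5 and 33.5 CPM in ENL (0.14, adjusted p = 0.636), with control library 2 apart from the rest.

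Spread inside a group set some genes apart. In 32 of the 78 the highest library of each group was at most 1.25 times the lowest, and in 14 it was more than 1.5 times in at least 1 group. MRPS2, of a bacterial family of the small subunit, was at 33.99, 70.86 and 91.57 CPM in control and 76.6, 42.4 and 62.3 CPM in ENL. MRPL30, of a bacterial family of the large subunit, was at 34.7, 34.2 and 17.2 CPM in control and 43.02, 23.84 and 16.18 CPM in ENL. With standard errors of 0.40 for MRPS2 and 0.44 for MRPL30, their log2 fold changes of -0.12 and -0.05 were not detectable at this replication (adjusted p = 0.841 and 0.935).

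ENL library 3 had the lowest level of the 3 ENL libraries for 72 of the 78 genes (92.3%), beside 5307 of the 14086 tested genes (37.7%). The summed level was 4722, 4898 and 4614 CPM in control and 5456, 5506 and 4445 CPM in ENL, so ENL libraries 1 and 2 were above all of control and ENL library 3 below. As a share of all units, the genes took 0.510%, 0.520% and 0.499% in control and 0.5004%, 0.4969% and 0.4328% in ENL. On that scale the groups overlapped, with ENL library 1 above control library 3 and ENL library 3 well below the rest. Cytosolic ribosomal protein genes took 7.48% to 7.85% of all units in control and 12.3%, 12.8% and 10.4% in ENL, also lowest in ENL library 3 of that group. With cytosolic ribosomal and mitochondrially encoded genes left out of the total, the shares were 0.619%, 0.639% and 0.603% in control. In ENL they were then 0.633%, 0.632% and 0.529%. Whether the larger share of the cytosolic genes bears on the share of the mitochondrial ones was not tested.

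The number of genes called rose without that library and fell without any other, as did the share of all tested genes called. Without ENL library 3, 28 of the 78 genes were higher and 4 lower, and 17 of the 20 called genes were shared, with 41.8% of all tested genes called. Without control library 1, 2 or 3 the counts were 6 higher and 4 lower, 6 and 2, and 6 and 3. Without ENL library 1 they were 7 and 5, and without ENL library 2 they were 8 and 4. Of all tested genes, 27.8%, 27.8% and 26.6% were called without control library 1, 2 or 3. Without ENL library 1 or 2 the shares were 30% and 32.1%, beside 38.4% with all libraries. MRPL9, MRPL12 and MRPL34, which did not pass with all libraries (adjusted p = 0.0649, 0.377 and 0.0706), passed without ENL library 3 (0.00907, 0.0325 and 0.00101).

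**Figure D4:**
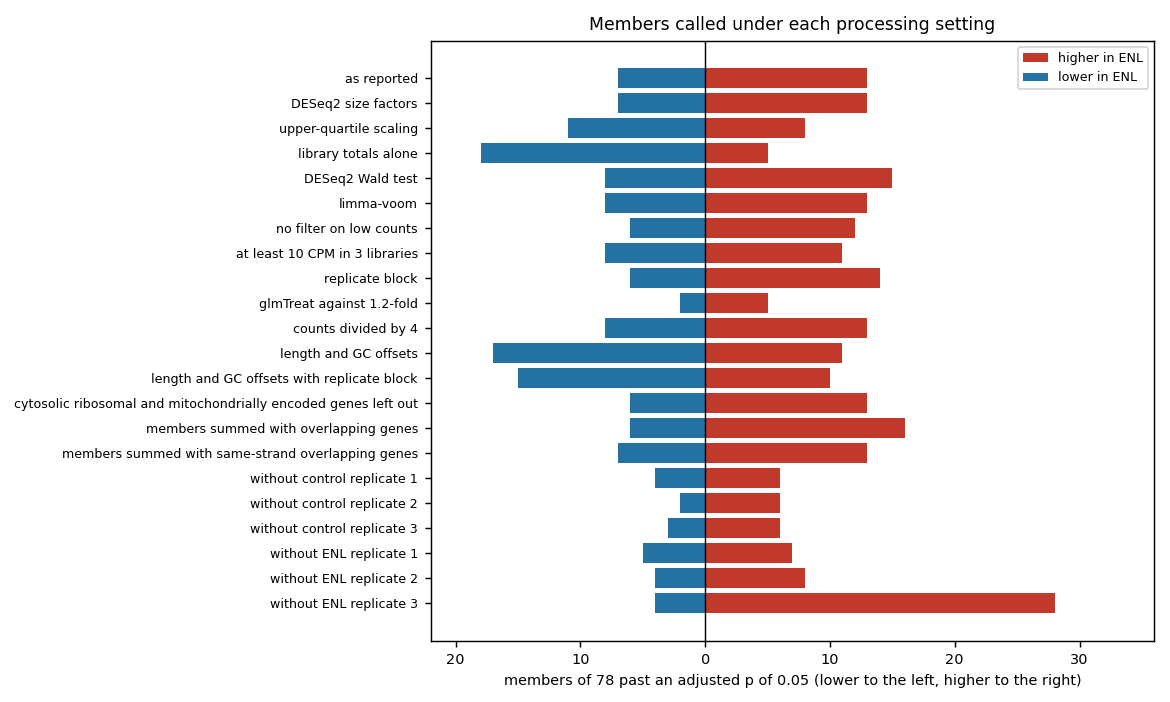
Number of the 78 genes past an adjusted p of 0.05 under each processing setting, higher in ENL to the right and lower to the left. Calls were 13 higher and 7 lower as reported, 5 and 18 with library totals alone, 8 and 11 with upper-quartile scaling, and 28 and 4 without ENL library 3. Of all tested genes, 38.4%, 41.2%, 39% and 41.8% were called in these settings.

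Across the 78 genes the log2 fold change went only weakly with transcript length (Pearson r = -0.198, Spearman rho = -0.214), GC content (0.155 and 0.214) or control level per kilobase (0.105 and 0.104). These are descriptions across genes measured in the same libraries. Transcripts of these genes were short, with a median of 1516 bases beside 3325 for all tested genes. With offsets for length and GC content the median log2 fold change became -0.02 beside -0.05 for all tested genes, with 11 genes higher and 17 lower. Of all tested genes, 43.8% were called with these offsets.

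Many of these genes start close to another gene on the opposite strand. A partner start within 1000 bases, upstream or overlapping by under 200 bases, was found for 19 of the 78 (24.4%) beside 11.3% of tested genes. MRPS11 and MRPL46, with starts 34 bases apart, are partners of each other, and neither passed the test (-0.08 and -0.28). The member and its partner had log2 fold changes of the same sign in 11 of 19 cases, where MRPS11 and MRPL46 enter once each. Both were called in the same direction in 2 of 19. The matching shares over all tested genes with a partner were not computed, so no conclusion is drawn from these counts. In those 2, MRPL54 and MRPL21 rose, as did their partners APBA3 (0.40, adjusted p = 0.0206) and IGHMBP2 (0.36, adjusted p = 0.0402). The partner of MRPL32 was PSMA2, a proteasome subunit, which starts 23 bases away (0.23, adjusted p = 0.0626). The partners of MRPS34 and MRPL47, EME2 (-1.47, adjusted p = 0.381) and NDUFB5 (0.19, adjusted p = 0.224), had the opposite sign to them and did not pass.

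The mitochondrial ribosome also holds proteins whose symbols do not follow the pattern. Of 5 such genes 1 changed. PTCD3, an RNA-binding protein of the small subunit, fell by 0.32 ± 0.07 on the log2 scale (adjusted p = 0.0113). DAP3, a GTP-binding protein of the small subunit, was at 0.23, AURKAIP1 at 0.11, CHCHD1 at -0.19 and GADD45GIP1 at 0.26, none of which passed.

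Factors that assemble the ribosome moved in both directions, with 6 of 28 tested genes higher (21.4%), 5 lower (17.9%) and a median of 0.00. These shares are close to the 20% and 18.4% of all tested genes. NSUN4, an RNA methyltransferase that acts in assembly, rose by 0.94 (adjusted p = 0.00891), NOA1, a GTPase, by 0.56 (adjusted p = 0.00211) and GTPBP6 by 0.51 (adjusted p = 0.00854). DDX28, an RNA helicase, fell by 0.67 (adjusted p = 0.00241), RBFA, which binds the small-subunit RNA, by 0.46 (adjusted p = 0.00588) and RCC1L by 0.43 (adjusted p = 0.0195). The higher count was 3 without control library 1, control library 3 or ENL library 2 and 4 to 6 otherwise, and the lower count was 2 without control library 2 or 3 and 3 to 4 otherwise.

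Of 13 tested translation factors 2 were higher (15.4%) and 5 lower (38.5%), with a median of -0.22. OXA1L, which inserts new proteins into the inner membrane, rose by 0.37 (adjusted p = 0.0201) and MTIF3, an initiation factor, by 0.47 (adjusted p = 0.0214). GFM1, an elongation factor, fell by 0.65 (adjusted p = 0.00657) and TACO1, an activator of COX1 translation, by 0.59 (adjusted p = 0.0105). The lower count was 2 without control library 2, control library 3 or ENL library 2 and 3 without any other library, and the higher count was 0 to 2.

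Genes for mitochondrial RNA synthesis and stability were more often lower than higher, with 2 of 20 higher (10%), 10 lower (50%) and a median of -0.39. FASTKD5 and FASTKD3, which act in mitochondrial RNA processing, fell by 1.40 ± 0.12 (adjusted p = 0.00025) and 1.35 ± 0.14 (adjusted p = 0.000559), and TRMT10C, a subunit of mitochondrial RNase P, fell by 0.69 (adjusted p = 0.00268). GRSF1 rose by 0.65 (adjusted p = 0.023) and POLRMT, the mitochondrial RNA polymerase, by 0.40 (adjusted p = 0.0259). The lower count was 6 without control library 1 and 7 to 10 without any other library, and the higher count was 0 to 3. Of 17 mitochondrial aminoacyl-tRNA synthetases, which load amino acids onto tRNA, 1 was higher (5.88%) and 8 lower (47.1%), with a median of -0.35. CARS2 fell by 0.96 (adjusted p = 0.000417), MARS2 by 1.03 (adjusted p = 0.00098) and PARS2 by 1.19 (adjusted p = 0.00114), while WARS2 rose by 0.64 (adjusted p = 0.00371). Their lower count was 5 without control library 3 and 6 to 8 without any other library.

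The 13 proteins that this ribosome makes are encoded by mitochondrial DNA, and among their genes 2 were higher (15.4%) and 4 lower (30.8%), with a median of -0.30. MT-ATP8 fell by 0.99 (adjusted p = 0.000739), MT-CYB by 0.98 (adjusted p = 0.000789) and MT-CO3 by 0.66 (adjusted p = 0.00897), while MT-ND5 rose by 0.50 (adjusted p = 0.00568) and MT-ND6 by 0.85 (adjusted p = 0.00977). Without ENL library 3 the counts were 5 higher and 6 lower. MT-ND5 and MT-ND6 lie on opposite strands of the mitochondrial genome.

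The cytosolic ribosomal protein genes, the counterparts in the ribosome that translates nuclear genes, differed from the mitochondrial ones in count. They were found by symbols of RPL or RPS, a number and at most an A or X, which leaves out some, such as FAU. Of 73 such genes 70 were higher by edgeR (95.9%), with a median of 0.86. All of their log2 fold changes were positive, from 0.46 to 1.40, whereas the mitochondrial ribosomal protein genes ran from -1.75 to 1.01. Many cytosolic ribosomal protein genes have near-identical pseudogene copies, so their counts are uncertain.

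**Figure D5:**
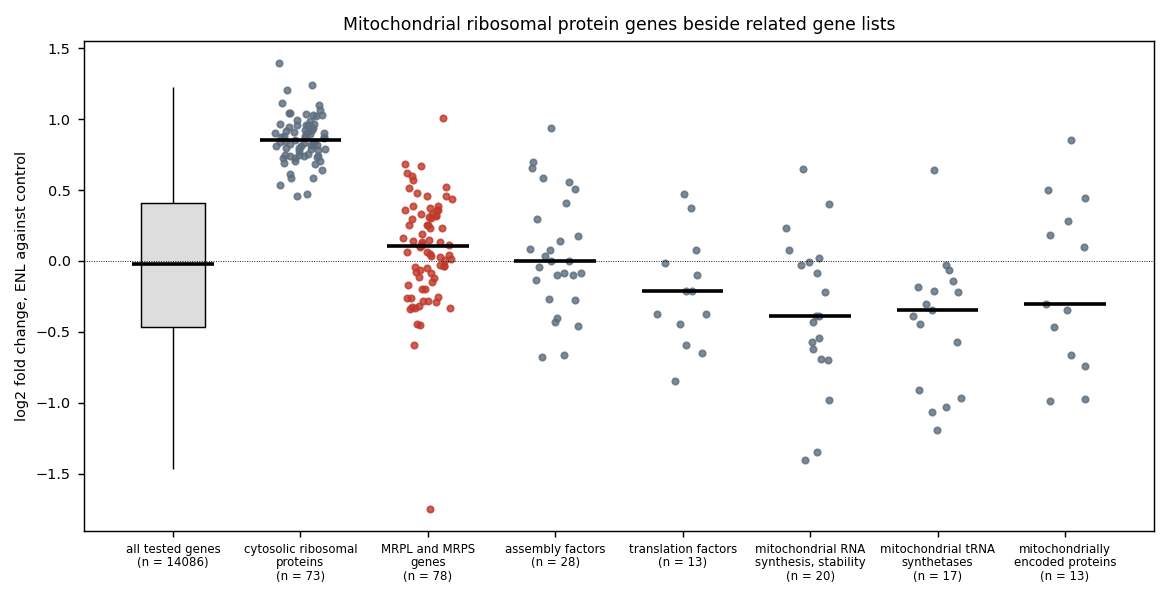
Log2 fold change, ENL against control, for the 78 genes (red), for related gene lists (grey points) and for all tested genes (box, middle of the distribution; lines, 5th to 95th percentile), with the median of each as a bar. On the TMM scale the median was 0.11 for the 78 genes (-0.10 with library totals alone), 0.86 for cytosolic ribosomal proteins and -0.39 for mitochondrial RNA synthesis and stability.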

How the data were processed

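Expression was measured by RNA sequencing in 3 control and 3 ENL libraries of BT549. Per the submitters' processing notes, the tools were DESeq2, StringTie, STAR and FastQC and the build was hg38, with no versions or roles. The authors deposited 1 table of estimated counts per gene symbol, whose annotation, strand setting and mRNA selection the sources used here do not give. From 70.8% to 73.1% of low values lay at multiples of 4 or 1 above, a moderate excess over evenly spread values. From this 1 fragment was taken as about 4 units, which the sources used here do not state. Counting error at low values is then larger than their size shows. The values are whole and were not rounded.

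Columns were matched to samples by name, and groups came from the treatment label. No replicate pair agreed within sampling noise, so all 6 libraries were used. Low genes were removed by filterByExpr in edgeR (count 10 or more required), libraries were scaled by TMM, and a two-sided quasi-likelihood test (robust glmQLFit, then glmQLFTest) was run on the group alone, with Benjamini-Hochberg adjustment over all tested genes and a threshold of 0.05. The procedure was tested on simulated data in which few genes changed, in both directions at random. That setting meets the assumption of TMM, so it does not test the choice of scaling. Versions were DESeq2 1.42.0, limma 3.58.1, edgeR 4.0.16 and R 4.3.3. Positions, exon overlaps, lengths and GC content come from GENCODE 29 (GRCh38), which matched 19811 of 19923 symbols.

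The members, gene lists and settings were chosen with earlier results of these data known. Values are given in full for the 6 genes per direction with the largest changes among those called, the 3 with the smallest adjusted p, the 3 most abundant per length and a fixed set of members. The other genes of the pattern that are named with values, such as MRPL9, MRPL34, MRPS2 and MRPL30, were named after their values were seen. Related lists name up to 3 called genes per direction by adjusted p, with SPG7 named by role and neighbouring genes by position. Mitochondrial ribosomal RNAs were not analysed here. Alternatives were other scalings, DESeq2, limma-voom, other filters, glmTreat, a replicate block, counts divided by 4, length and GC offsets, overlapping genes summed, cytosolic ribosomal and mitochondrially encoded genes left out, and each library left out. Summing with same-strand neighbours alone was added after seeing the data.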

Additional observations from a re-analysis of the deposited data

How the results depend on the processing

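Of the 20 called genes, 5 were called the same way in all 21 settings, and 14 lost the call in at least 1. MRPL49 reversed. Of the 58 genes not called, 32 were called in at least 1 setting and 26 in none. MRPL3 (-0.26, adjusted p = 0.0511 by edgeR as reported) was called lower in 8 of the 21. Upper-quartile scaling gave 8 higher and 11 lower (large subunit 5 and 8, small subunit 3 higher, all genes 2356 and 3136). Library totals alone gave 5 and 18 (large subunit 4 and 14, small subunit 1 and 4; all genes 1804 and 3996) and a median of -0.103. Against a 1.2-fold change, glmTreat gave 5 and 2 (large subunit 4 and 2, small subunit 1 and 0, all genes 1963 and 1713). Length and GC offsets gave 17 lower (large subunit 15, all genes 3107), and with the replicate block 15 (large subunit 13, all genes 2698). Summed with overlapping genes, 1 small-subunit gene was lower, MRPS7 (-0.28, adjusted p = 0.0426), which was not called alone, while MRPS14 and MRPS25 lost their calls. Leaving out each library gave 6 to 28 higher and 2 to 5 lower, in the large subunit 4 to 21 and 2 to 5, and in the small subunit 1 to 7 and 0 to 2. Over all tested genes the counts were then 2072 to 3156 higher and 1743 to 2877 lower. DESeq2's size factors gave 13 and 7, the DESeq2 Wald test 15 and 8, and limma-voom 13 and 8. Of all tested genes, these called 38.4%, 43.1% and 39.5%.

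Some log2 fold changes changed sign, most of them near 0. With upper-quartile scaling they were MRPS21 at -0.0208, MRPS18B at -0.0726 and MRPS18C at -0.0236. With library totals they were MRPL24 at -0.0785, MRPS21 at -0.148, MRPL18 at -0.103, MRPS18B at -0.194, MRPS18C at -0.15, MRPL12 at -0.0226, MRPS36 at -0.0714 and MRPL55 at -0.116. At 10 CPM or more MRPS18B was at -0.0212. With length and GC offsets, and then with the replicate block added, MRPL24 was at -0.0633 and -0.0622, MRPS21 at -0.0251 and -0.0284, MRPL18 at -0.017 and -0.0163, MRPS18B at -0.0871 and -0.0894, MRPL12 at -0.118 in both, MRPL41 at -0.111 and -0.11, and MRPL55 at -0.0863 and -0.0627. The called genes MRPL49 and MRPS14 changed sign when summed with overlapping genes, to 0.609 and 0.149, and MRPS18A was at 0.0236. Leaving out each library moved MRPS18B over -0.00873 to 0.04, MRPS18A over -0.102 to 0.066, MRPS36 over -0.0738 to 0.293, MRPS21 over -0.0378 to 0.177, MRPS12 over -0.197 to 0.0851, MRPL30 over -0.518 to 0.233, MRPS2 over -0.426 to 0.207 and MRPL55 over -0.11 to 0.4. The cause was not tested.

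Libraries of the 2 groups share replicate numbers, but deviations of same-numbered libraries correlated at 0.03, 0.046 and 0.08 over all tested genes and at 0.089, 0.227 and 0.386 over the 78, so that not every pair was above 0.1 and the numbers were not taken as pairs. With the replicate block 14 genes were higher and 6 lower, and 2631 and 2310 of all tested genes. Over all tested genes every library but ENL library 1 correlated best with its own number, which is a hint from the data and not from the design, and ENL library 1 did so with control library 2 (0.032).

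Related lists moved as well. With library totals alone, 3 assembly factors were higher (6 as reported), 0 translation factors were higher and 8 lower (2 and 5), 0 genes of RNA synthesis and stability were higher (2), and 13 tRNA synthetases (8) and 7 mitochondrially encoded genes (4) were lower. With glmTreat the counts were 3 and 2 for assembly factors (6 and 5), 0 and 2 for translation factors, 0 and 6 for RNA synthesis and stability (2 and 10) and 5 lower synthetases.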

Other observations

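Regulators of mitochondrial gene expression in the nucleus were measured in the same fit. Of 10 such genes 1 was higher (10%, beside 20% of all tested genes) and 2 lower (20%, beside 18.4%). PPARGC1A, a coactivator of mitochondrial biogenesis, was at 0.286, 0.740 and 0.553 CPM in control and 4.26, 1.26 and 4.94 CPM in ENL, with no overlap but at a level of few fragments (adjusted p = 0.0123 by edgeR). PPARGC1B, its relative, fell by 0.74 ± 0.12 on the log2 scale (adjusted p = 0.00382). PERM1, a muscle regulator, was the other gene called lower, at 0.149, 0.160 and 0.153 CPM in control and 0 in every ENL library. It passed the filter on low counts only through the control libraries and at a level of few fragments. Its call is therefore not evidence of a change, though it is in the count of 2. NRF1 (0.12, adjusted p = 0.431), GABPA (0.27, adjusted p = 0.124) and YY1 (-0.20, adjusted p = 0.492), the factors whose motifs were searched, did not pass. MYC was at 27.8, 28.9 and 105 CPM in control, with control library 3 apart from the others, and at 31.03, 33.79 and 37.02 CPM in ENL. The lower count was 1 without any 1 of the control libraries, and the higher count was 2 without ENL library 2.

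Among 14 mitochondrial chaperones and proteases, which fold or remove imported proteins, 4 were higher and 4 lower (28.6% each). LONP1, the matrix protease, rose by 0.77 (adjusted p = 0.000821), HSPA9, the matrix chaperone that drives import, by 0.69 (adjusted p = 0.0038) and DNAJA3, its partner, by 0.69 (adjusted p = 0.00102). GRPEL1, which exchanges the nucleotide on HSPA9, fell by 0.64 (adjusted p = 0.011). Without ENL library 3 the counts were 5 and 5, and without any other library 2 were lower.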
